A study of Mus musculus with 8 samples.

Results

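The 8 mouse genes of the regulatory factor X family, Rfx1 to Rfx8, and the forkhead gene Foxj1 were followed in Thy1+ cells from the testes of Glis3KO2 and wild-type (WT) pups at postnatal day 4. They were chosen by name, and Rfx8 was among them because it had been seen lower in Glis3KO2 on these same arrays, so its levels are a description with no test. Probes were assigned through the RefSeq accession of each spot, which gave 17 probes of 41174 on the array and 9 genes of 19092 that could be named. The 4 Glis3KO2 samples and the 4 WT samples were all C57BL/6, untreated, labelled as spermatogonial progenitors, and from pups kept with their biological mother. Each sample was hybridised to an Agilent array of its own, in 1 colour, with cDNA amplified from total RNA. The sources used here describe neither the targeted allele nor the number of animals behind each sample, and the design text counts 3 testes per genotype where the labels list 4 samples. The spread on which p-values rest may therefore be partly technical.

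RFX proteins bind DNA through a winged-helix domain, and most of them bind the X-box, a sequence that carries a pair of inverted half-sites, as dimers. RFX1, RFX2 and RFX3 bind X-boxes in promoters of ciliary genes, and FOXJ1 is the main activator of the genes of motile cilia, often beside RFX proteins. In the mouse testis Rfx2 acts in the haploid cells that build the sperm flagellum, which is a modified motile cilium. RFX5 is instead a subunit of the complex that binds the promoters of MHC class II genes, and RFX6 acts in the pancreatic islet, a tissue in which Glis3 also works. GLIS3 itself is a zinc finger protein of the GLI-similar family that binds G-rich elements.

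The promoters of the family differ in which of these elements they hold, and the 4 shown carry the letters that separate them. The sequences are RefSeq promoters of GRCm38.p6, with 250 bases before and 50 bases after an annotated start, and they covered 8 of the 9 genes with 9 promoters. The searched RFX half-site was GTTGCC or its other strand GGCAAC, which occurred in 4111 of 32851 promoters of this length (12.5%) and in 4 of the 9 promoters of the family, those of Rfx1, Rfx2, Rfx3 and Rfx6. The searched GLI-similar core was TGGGGGGT or its other strand ACCCCCCA, which occurred in 501 of all promoters (1.53%) and, within the family, in that of Rfx8 at position 204. Positions are counted from 1 at the 5′ end of the printed strand. Rfx8 lies at chr1:39720940-39721239 on the minus strand, Rfx1 at chr8:84066586-84066885 on the plus strand, Rfx2 at chr17:56830959-56831258 on the minus strand and Rfx3 at chr19:28011117-28011416 on the minus strand. The starts of Rfx8 and Rfx2 are the outer ends of their annotated genes, whereas those of Rfx1 and Rfx3 lie inside the annotated gene. Capitals mark the GLI-similar core in Rfx8, and in the others the RFX half-site with the looser inverted stretch GNAAC before it and the base between them.
Rfx8: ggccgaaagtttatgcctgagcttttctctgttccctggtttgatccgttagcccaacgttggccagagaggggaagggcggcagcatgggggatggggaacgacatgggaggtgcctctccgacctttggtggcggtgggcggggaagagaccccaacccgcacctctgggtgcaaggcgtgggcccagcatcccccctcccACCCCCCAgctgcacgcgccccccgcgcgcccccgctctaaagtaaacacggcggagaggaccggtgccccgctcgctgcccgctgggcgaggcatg
Rfx1: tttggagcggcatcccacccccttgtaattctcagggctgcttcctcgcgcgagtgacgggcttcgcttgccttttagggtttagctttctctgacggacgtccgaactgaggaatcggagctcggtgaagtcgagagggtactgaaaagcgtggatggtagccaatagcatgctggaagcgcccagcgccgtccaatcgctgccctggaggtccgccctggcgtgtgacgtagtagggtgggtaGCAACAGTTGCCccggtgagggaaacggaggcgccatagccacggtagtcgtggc
Rfx2: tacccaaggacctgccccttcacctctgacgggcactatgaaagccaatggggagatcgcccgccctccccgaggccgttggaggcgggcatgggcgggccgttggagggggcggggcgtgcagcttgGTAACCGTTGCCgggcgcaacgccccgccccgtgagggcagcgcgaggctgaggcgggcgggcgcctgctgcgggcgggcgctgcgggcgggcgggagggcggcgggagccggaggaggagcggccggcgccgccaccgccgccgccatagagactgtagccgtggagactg
Rfx3: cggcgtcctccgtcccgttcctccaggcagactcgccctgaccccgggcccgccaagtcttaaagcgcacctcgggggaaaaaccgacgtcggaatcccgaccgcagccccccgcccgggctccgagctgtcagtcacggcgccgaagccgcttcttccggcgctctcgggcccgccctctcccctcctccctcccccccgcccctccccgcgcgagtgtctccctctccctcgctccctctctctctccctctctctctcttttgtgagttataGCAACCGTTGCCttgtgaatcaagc
The longer element, GNAAC, any base and then GTTGCC, searched on both strands, was chosen after these letters had been seen and contains the half-site. It occurred in 25 of all promoters (0.0761%), and Rfx1, Rfx2 and Rfx3 were among them. A match describes letters and is neither a binding site nor a cause.

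Levels are given as log2 of the processed signal minus the 75th percentile of that array, which was 243 to 533 signal units over the 8 arrays. Between 86.0% and 90.3% of spots per array were well above background and none was saturated. On both slides the WT arrays took positions 1 and 2 and the Glis3KO2 arrays positions 3 and 4, so position and genotype cannot be told apart. The Glis3 probe lay at -1.67 ± 0.49 in Glis3KO2 and -0.23 ± 0.94 in WT (SD, n = 4 each), and the 4 Glis3KO2 arrays were below the 4 WT arrays. The difference of -1.43 was -0.62 without WT replicates 3 and 4. The sources used here do not say whether that probe lies in the deleted part of Glis3. WT replicates 3 and 4 stood apart from the other 6 arrays on the first principal component (28.6% of the variance), with more signal from markers of undifferentiated spermatogonia and less from stromal and smooth muscle markers. All 18 spermatogonial markers and all 12 Sertoli, 12 stromal and 8 smooth muscle markers on the array were measured. The probe A_51_P420731 for Thy1, the surface protein used to isolate the cells, averaged 1.13 ± 0.27 in Glis3KO2 and -0.16 ± 1.78 in WT (SD, n = 4 each), with WT replicates 3 and 4 at -1.79 and -1.53. The second Thy1 probe, A_52_P479249, averaged 1.88 ± 0.54 in Glis3KO2 and 1.22 ± 0.89 in WT, with WT replicates 3 and 4 at 1.33 and -0.03, and so set replicate 4 apart but not replicate 3.

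Rfx8, a little-studied member of the family, was lower in all 4 Glis3KO2 arrays than in any WT array. Its single probe, A_52_P832709, gave a processed signal of 21.8, 14.7, 8.65 and 13.5 in Glis3KO2 replicates 1 to 4, against 72.3, 52.7, 25.2 and 41.0 in WT replicates 1 to 4. On the log2 scale these were -4.10, -4.96, -4.86 and -4.66 in Glis3KO2 and -2.30, -3.34, -3.27 and -2.73 in WT. The highest Glis3KO2 array thus lay below the lowest WT array. The means were -4.65 ± 0.38 in Glis3KO2 and -2.91 ± 0.49 in WT (SD, n = 4 each), a difference of -1.74 with a standard error of 0.31, or a 3.33-fold lower signal. This contrast chose the gene, and no test is attached to it. In bulk samples of this kind, fewer cells of a type and less RNA per cell cannot be told apart.

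The Rfx8 spot was dim in both genotypes. Before background subtraction its median pixel signal was 87, 80, 68 and 75 in Glis3KO2 over local backgrounds of 66, 67, 54.5 and 57.5. In WT it was 147, 117, 92 and 102.5 over local backgrounds of 74, 61, 72 and 62. The spot was called well above background on 3 of 4 Glis3KO2 arrays, replicate 3 being the exception, and on 4 of 4 WT arrays. The size of the difference moved with the background method: it was -1.06 when the background was modelled with normexp and -0.40 when normexp was followed by quantile normalization. Under normexp with the 75th percentile the median difference over all measured probes was itself -0.31, against -0.06 with the processed signal. Under that setting Rfx8 in WT replicate 2 read -0.27, against -1.91 to -1.67 in the other WT arrays. This array read differently for other probes too, with a narrower range. Rfx6 probe A_51_P151848, flagged on no array, read -0.30 there, against -2.74 to -2.07 in the other WT arrays. The bright Rfx1 probe A_52_P523480 read 1.81, against 3.32 to 3.52. Leaving WT replicate 2 out gave a Rfx8 difference of -0.69, with the median over all probes at -0.13, a comparison chosen after the data were seen. The Rfx8 groups did not overlap under any of these settings.

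The Rfx8 difference was -1.70 on the first slide and -1.78 on the second. It was -1.83 without WT replicates 3 and 4, the arrays rich in spermatogonial markers. Rfx8 was chosen by its difference over these same arrays, so these values describe it and are no check on it. Relative to their mean over all arrays, the 18 spermatogonial markers averaged -0.35, -0.09, 0.95 and 1.18 in WT replicates 1 to 4. Rfx8 had the same order as these markers in WT replicates 2 to 4 and was highest in replicate 1, where the markers were lowest. In Glis3KO2 replicates 1 to 4 the markers averaged -0.47, -0.61, -0.21 and -0.39. A part of the spermatogonial content in the Rfx8 difference was not tested.

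**Figure D1:**
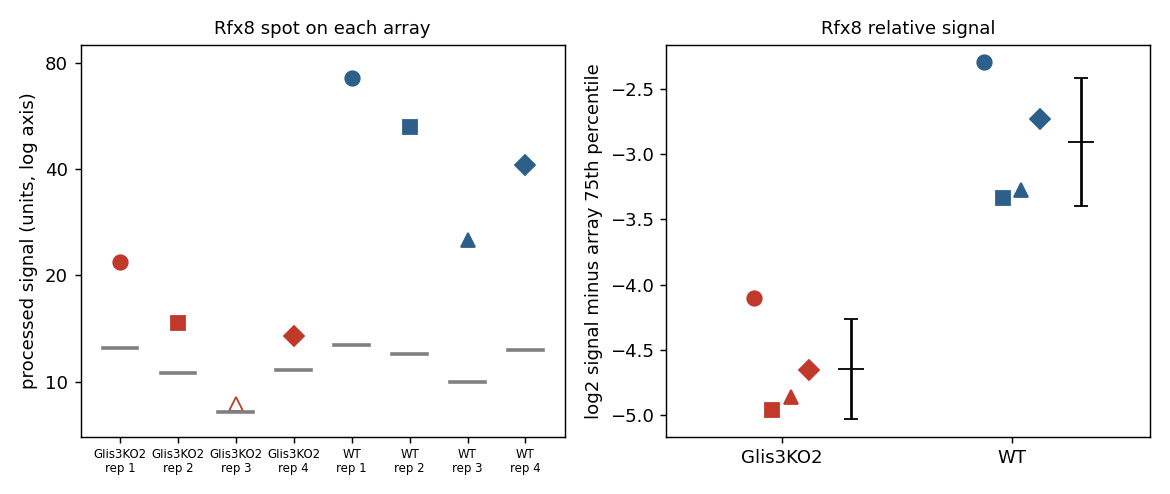
Rfx8 probe A_52_P832709 on each array, as processed signal on a log axis (left, signal units) and as log2 signal minus the array's 75th percentile (right), with Glis3KO2 left of WT. Filled points were well above background, the open point on the left (Glis3KO2 replicate 3) was not, symbols from circle to diamond are replicates 1 to 4, grey bars on the left mark the lowest signal well above background on that array, and black bars on the right are the mean ± SD; the 4 Glis3KO2 arrays lie at -4.96 to -4.10 and the 4 WT arrays at -3.34 to -2.30.

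Beside Rfx8, 14 probes of 7 of the other genes were measured, that is, the scanner software flagged them as well above background on 4 or more arrays. None of the 14 passed limma's adjusted p of 0.05, and none had an unadjusted p under 0.05. Over all 36429 measured probes 0% were called after adjustment, and 6.39% had an unadjusted p under 0.05, 3.89% lower and 2.5% higher in Glis3KO2. That split was 1416 lower and 912 higher, and with quantile normalization it was 1112 lower and 1120 higher. Of the 14 probes, 10 had a lower and 4 a higher mean in Glis3KO2, where 56.8% of all measured probes had a lower mean, and 13 lay within 0.5 log2 units of no difference. Apart from Rfx8, whose own choice fixed its place, 1 Rfx4 probe had groups that did not overlap, against 2.23% of all measured probes without overlap and lower and 1.06% without overlap and higher.

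**Figure D2:**
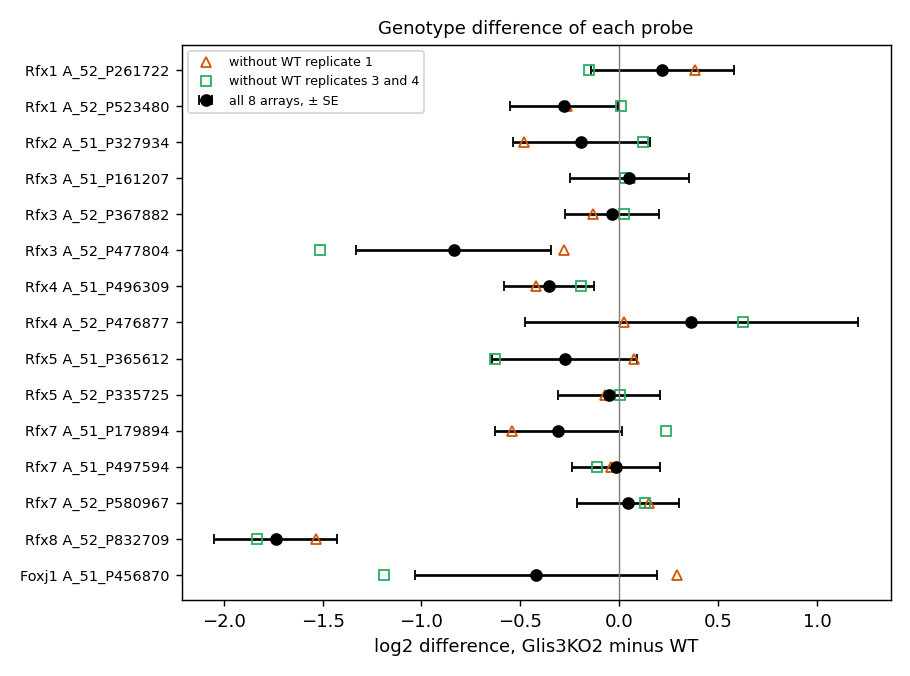
Difference in log2 level, Glis3KO2 minus WT, for each of the 15 measured probes (black points, ± SE from limma over 8 arrays), with the same value without WT replicate 1 (triangles) and without WT replicates 3 and 4 (squares). Rfx8 lies at -1.74 with both other values beside it, whereas the Foxj1 point at -0.42 lies between 0.29 without WT replicate 1 and -1.19 without WT replicates 3 and 4.

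Rfx1, the founding member of the family and broadly expressed, had a pair of probes that gave differences of opposite sign. Probe A_52_P261722 averaged 0.81 ± 0.63 in Glis3KO2 and 0.59 ± 0.46 in WT (SD, n = 4 each), a difference of 0.22 with a standard error of 0.36 (limma, adjusted p = 0.901). Probe A_52_P523480 averaged 3.17 ± 0.21 in Glis3KO2 and 3.45 ± 0.44 in WT, a difference of -0.28 with a standard error of 0.27 (limma, adjusted p = 0.830). The groups overlapped for both. Within genotype the probes were inversely related over the 8 arrays (r = -0.52).

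Rfx2, which mouse spermatids need to form flagella, was dim at this age, when no haploid germ cells are present in the mouse testis. Its log2 level was -3.24, -3.35, -2.76 and -3.78 in Glis3KO2 replicates 1 to 4, against -3.97, -2.84, -2.62 and -2.94 in WT replicates 1 to 4. The groups overlapped, with WT replicate 1 lowest of all 8. The difference was -0.19 with a standard error of 0.35 (limma, adjusted p = 0.912).

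Rfx3, needed in the mouse for nodal cilia and for the cilia of islet cells, had 3 probes. Probes A_51_P161207 and A_52_P367882 differed by 0.05 with a standard error of 0.30 and by -0.04 with a standard error of 0.24 (limma, adjusted p = 0.978 and 0.981). Probe A_52_P477804 read -0.68, -0.35, -0.49 and -0.86 in Glis3KO2, against 1.91, -0.07, -0.64 and -0.22 in WT. WT replicate 1 stood above all others, and the other 3 WT arrays overlapped with Glis3KO2. The difference of -0.84 (standard error 0.49, limma, adjusted p = 0.761) was -0.28 without WT replicate 1 and -1.51 without WT replicates 3 and 4.

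Foxj1, too, was highest in WT replicate 1. Its processed signal was 60.4, 97.9, 69.7 and 55.2 in Glis3KO2, against 412.7, 93.5, 46.6 and 34.5 in WT. On the log2 scale this was -2.63, -2.23, -1.85 and -2.63 in Glis3KO2 and 0.22, -2.51, -2.38 and -2.98 in WT. The other 3 WT arrays lay within or below the Glis3KO2 range. The difference of -0.42 had a standard error of 0.61 (limma, adjusted p = 0.886) and became 0.29 without WT replicate 1. It was -1.16 on the first slide, which held WT replicate 1, and 0.32 on the second.

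Foxj1 in WT replicate 1 was 2.68 log2 units above the mean of the other 7 arrays, and 0.409% of all measured probes lay further above theirs. Over the 8 arrays Foxj1 and Rfx3 probe A_52_P477804 had a within-genotype correlation of 0.93, and of 0.22 over the 7 arrays without WT replicate 1. All 6 measured Leydig cell markers were highest in that array too, with a mean of 1.52 above their average over all arrays. Their mean was next highest in WT replicate 3, at 0.55, where Foxj1 was at -2.38. In WT replicate 1 the means of endothelial and macrophage markers were the highest too, at 0.84 and 0.66. So were those of the regulators of cilium formation, Foxj1 among them, at 0.59, and of the RFX5 and MHC class II list, at 0.55. Of the 69 measured genes of the motile axoneme, 13 were highest in WT replicate 1 (18.8%), against 15.5% of all measured probes. Whether the signal of Leydig or any other of these cells has a part in the Foxj1 and Rfx3 values was not tested.

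**Figure D3:**
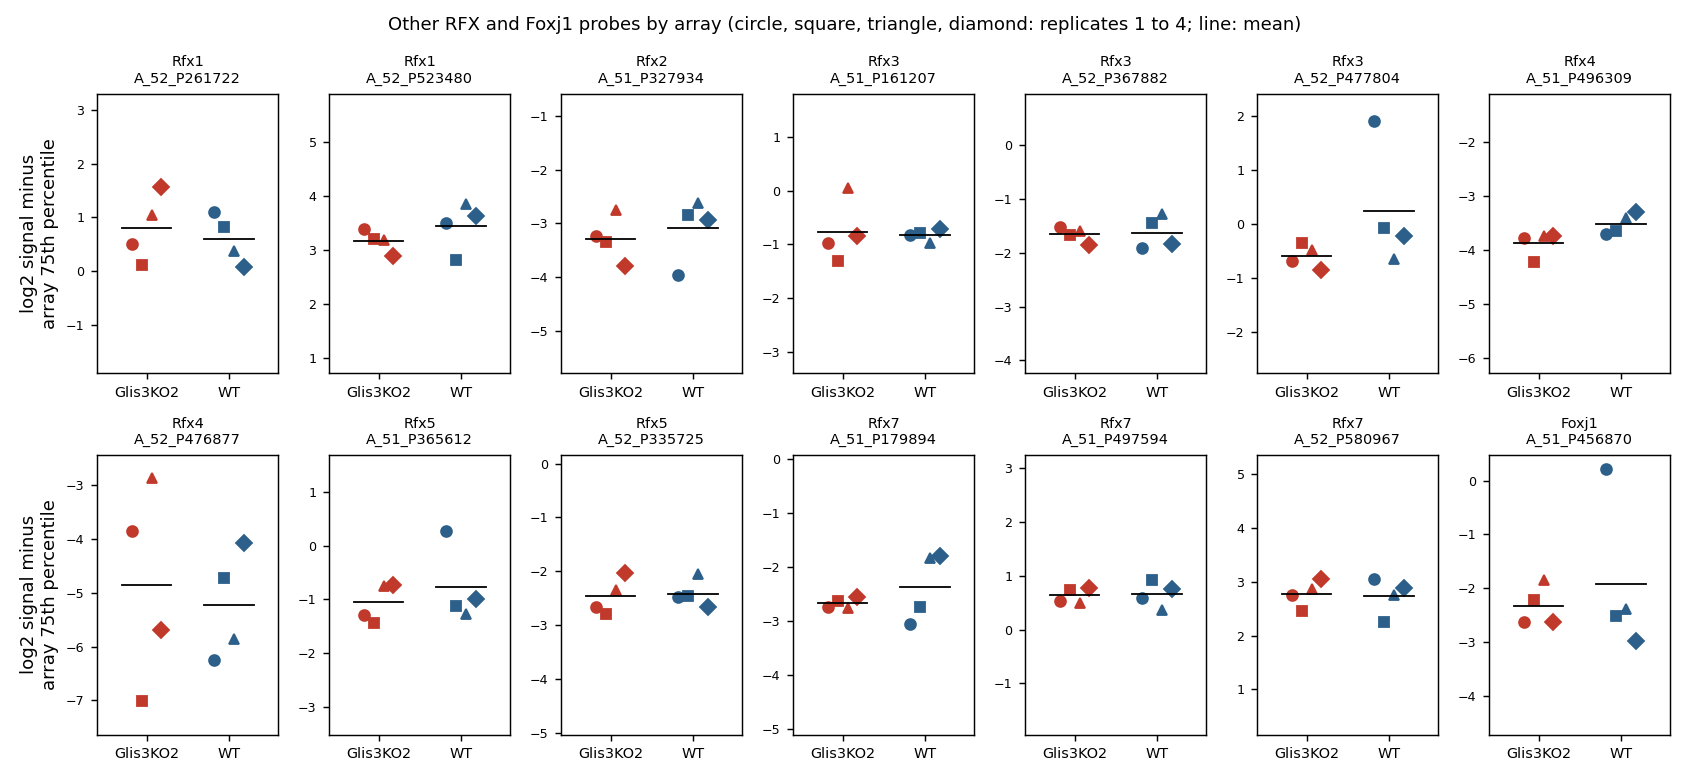
Log2 level (vertical axis, signal minus the array's 75th percentile) of the 14 measured probes other than Rfx8, a panel each, with Glis3KO2 left of WT, replicates 1 to 4 as circle, square, triangle and diamond, and a line at each mean. WT replicate 1 stands at 0.22 for Foxj1 and 1.91 for Rfx3 A_52_P477804, above the other arrays, and at -3.97 for Rfx2, below them.

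Rfx4, known from mouse brain development and from testis, had a pair of dim probes with differences of opposite sign. Probe A_51_P496309 read -3.79, -4.22, -3.75 and -3.73 in Glis3KO2, against -3.71, -3.65, -3.41 and -3.30 in WT. The groups did not overlap, but the nearest arrays of each genotype differed by less than the spread within either, and the groups overlapped under each of the 3 other normalizations. The difference was -0.36 with a standard error of 0.23 (limma, adjusted p = 0.765). Probe A_52_P476877 was well above background on 2 of 4 arrays of each genotype and differed by 0.36 with a standard error of 0.84 (limma, adjusted p = 0.936).

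Rfx6, the islet member, had neither of its probes flagged as well above background in Glis3KO2. In WT, probe A_51_P151848 was never flagged either, and probe A_52_P125324 was flagged in 2 of 4 arrays, replicates 2 and 3. The processed signal of A_52_P125324 was 13.03, 7.24, 5.33 and 4.16 in Glis3KO2, against 10.5, 13.5, 10.96 and 11.4 in WT. For that probe the groups overlapped at the edge of detection. For A_51_P151848, below detection throughout, the log2 values were -7.66 to -7.07 in Glis3KO2 and -7.00 to -5.31 in WT. Those groups did not overlap, nor did they under quantile normalization, but they did under both normexp settings. No fold is given for either probe. Of 16 measured genes of an islet list around Rfx6 that includes Glis3, 14 had a lower mean in Glis3KO2 and none passed the adjusted test, with a median of -0.33 against -0.08 over all genes, and of -0.19 without WT replicates 3 and 4. Insm1, a zinc finger factor of endocrine cells, was at -0.70 with a standard error of 0.30 (limma, adjusted p = 0.759) and at -0.31 without those arrays, and it was well above background on 2 of 4 Glis3KO2 and 4 of 4 WT arrays.

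Rfx5 and Rfx7 lack the dimerization domain of the other members. Rfx5 probe A_51_P365612 read -1.29, -1.43, -0.75 and -0.73 in Glis3KO2, against 0.27, -1.12, -1.26 and -0.999 in WT. The groups overlapped and WT replicate 1 was again highest. The difference of -0.28 (standard error 0.37, limma, adjusted p = 0.877) became 0.07 without that array, and probe A_52_P335725 differed by -0.05 with a standard error of 0.26 (limma, adjusted p = 0.974).

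The partners of Rfx5 and the genes they act on had no common direction over all arrays. Of the 16 measured genes of a list around the RFX5 complex and MHC class II, 8 had a higher and 8 a lower mean in Glis3KO2. The list also held Creb1, Nfya, Nfyb, Nfyc, B2m and Nlrc5. The median was -0.04, and none passed the adjusted test. Without WT replicate 1, in which 7 of the 16 were highest, 12 were higher and 4 lower, with a median of 0.16. The subunits Rfxap and Rfxank were at -0.23 and 0.02, and the class II activator Ciita at 0.03, Rfxank and Ciita being named after their values were seen. Among the class II genes, H2-DMb2, part of the peptide-loading chaperone, was at -0.75 and H2-Ab1 at -0.13, whereas H2-Aa was at 0.75 and Cd74, the invariant chain, at 0.73 (limma, adjusted p = 0.784, 0.965, 0.768 and 0.772). With WT replicates 3 and 4 left out these were -1.49 for H2-DMb2, -0.84 for H2-Ab1, -0.16 for H2-Aa and 0.11 for Cd74.

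Rfx7, studied in mouse lymphoid cells, had 3 probes. Probes A_52_P580967 and A_51_P497594 differed by 0.04 with a standard error of 0.26 and by -0.02 with a standard error of 0.22. Probe A_51_P179894 differed by -0.31 with a standard error of 0.32, and its highest arrays were WT replicates 3 and 4 at -1.84 and -1.80. Without them its difference was 0.24. The adjusted p of the 3 probes lay between 0.844 and 0.992 in limma's test.

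The ciliary genes that RFX proteins and FOXJ1 act on fell into a motile and a shared group, given here by lists chosen with earlier results of these arrays known. Of 86 listed genes of the motile axoneme, 69 were measured, and 56 had a lower and 13 a higher mean in Glis3KO2 (81.2% lower, against 59.2% of all genes). None passed the adjusted test; 9 had an unadjusted p under 0.05 and were lower and 1 was higher, against 4.19% lower and 1.98% higher of all 17509 genes with 1 probe per gene. The list's median was -0.34 against -0.08 over all genes. It stayed at -0.34 without WT replicate 1 and was -0.13 without WT replicates 3 and 4. A large share with a lower mean was not particular to this list. It was 87.5% in the islet list and 84% in a list of late germ cell genes, and 50.9% in the transport and basal body list below. The share over all genes was not matched for brightness.

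Within the axoneme list, groups did not overlap for 6 genes, named here after their values were seen. Dnah2, Spag6, Drc1, Cfap45 and Cfap52 were lower in Glis3KO2 and Riiad1 was higher, where 2.6% of all genes were lower and 0.902% higher without overlap. Cfap52, an inner protein of the axonemal doublet, read -3.69, -4.19, -4.08 and -5.36 in Glis3KO2, against -1.54, -2.81, -3.22 and -1.84 in WT. Its difference was -1.97 with a standard error of 0.46, and Cfap45, of the same inner structure, was at -1.71 with a standard error of 0.39 (limma, adjusted p = 0.759 for both). Cfap52 was well above background on 3 and Cfap45 on 2 of 4 Glis3KO2 arrays, and both on 4 of 4 WT arrays. Spag6 was well above background on 2 of 4 Glis3KO2 and 4 of 4 WT arrays, and Riiad1 on 4 of 4 and 1 of 4. A gene counted as measured with 4 flagged arrays, which the brighter genotype alone can supply. Cfap45, Spag6 and Riiad1 passed in this way, so their lack of overlap is a description only. The nearest Spag6 arrays, Glis3KO2 replicate 4 and WT replicate 2, read -4.71 and -4.66, and WT replicate 1 read -4.68. Without WT replicates 3 and 4 the differences were -2.15 for Cfap52 and -2.16 for Cfap45.

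Genes of intraflagellar transport and the basal body, used by motile and sensory cilia alike, were balanced. Of 55 measured, 28 had a lower and 27 a higher mean in Glis3KO2, with a median of -0.03 that was 0.03 without WT replicate 1 and 0.04 without WT replicates 3 and 4, and none past the adjusted test. Nphp4, a protein of the ciliary transition zone, was at -0.99, whereas Bbs5, of the BBSome, and Ift22, of the transport complex, were at 0.66 and 0.65 (limma, adjusted p = 0.759 for each). The list of regulators of cilium formation, Foxj1 among them, comprised 8 measured genes. Of these, 6 were lower and 2 higher, with a median of -0.35 that became 0.07 without WT replicate 1. Ulk4, a kinase-like protein of motile cilia in the mouse, was at -0.51, Trp73, a p53 relative upstream of Foxj1, at -0.34, and E2f5 at 0.84, none past the test. E2f5 was at 0.54 without WT replicate 1 and at 1.43 without WT replicates 3 and 4.

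Axoneme genes with and without the RFX half-site in their promoter had close medians, a difference that was not tested. The half-site occurred in 30 of 79 promoters of the axoneme list (38.0%) and in 22 of 59 of the transport and basal body list (37.3%), against 12.5% of all promoters. Of 23 measured axoneme genes with the half-site, 22 had a lower mean in Glis3KO2, with a median of -0.34. Of 35 without it, 28 had a lower mean, with a median of -0.38. In the transport and basal body list 11 of 20 with the half-site and 13 of 28 without it were lower, at medians of -0.07 and 0.02.

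Markers of the cell types in the samples also differed in mean between the genotypes, none past the adjusted test. The 18 markers of undifferentiated spermatogonia all had a lower mean in Glis3KO2, with a median of -0.86 that was -0.06 without WT replicates 3 and 4. Their mean per array, relative to all arrays, ran between -0.61 and -0.21 in Glis3KO2 and between -0.35 and 1.18 in WT. The 12 stromal and 8 smooth muscle markers all had a higher mean in Glis3KO2, with medians of 0.91 and 1.01 that were 0.32 and 0.34 without WT replicates 3 and 4. The stromal list includes Thy1, the protein used to isolate the cells. Of 25 measured late germ cell genes, the setting in which Rfx2 acts, 21 were lower, with a median of -0.16 that was -0.10 without those arrays. Sertoli markers had a median of -0.26, with 9 of 12 lower, which turned to 0.25 without them. Markers of duct epithelium, which can carry motile cilia, had a median of 0.51, with 8 of 9 higher, and of 0.27 without them. Markers of macrophages, endothelium and lymphocytes had medians of 0.20, 0.17 and 0.12, which turned to -0.39, -0.24 and -0.28 without them. The 6 Leydig markers had a median of -0.33, which was -0.76 without WT replicates 3 and 4 and 0.12 without WT replicate 1. The part of these cell types in the axoneme values was not tested.

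**Figure D4:**
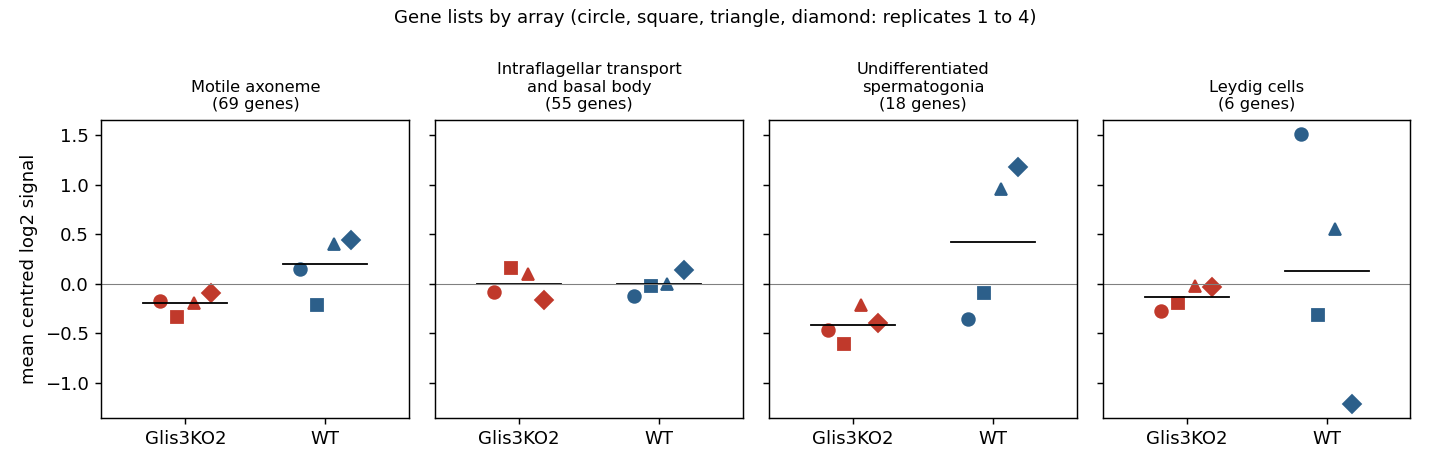
Mean log2 level of a gene list on each array, relative to each gene's mean over the 8 arrays (vertical axis, log2 units), for 4 lists in a panel each, with Glis3KO2 left of WT, replicates 1 to 4 as circle, square, triangle and diamond, and a line at each genotype's mean. The axoneme list is highest in WT replicates 3 and 4, at 0.40 and 0.45, where the spermatogonial markers are at 0.95 and 1.18, and the Leydig markers are at 1.52 in WT replicate 1.

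Among protein-coding genes, Rfx3 is next to Glis3 on mouse chromosome 19 in GRCm38.p6, with Slc1a1 on the other side. Slc1a1, a glutamate transporter, was at -0.35 with a standard error of 0.24 (limma, adjusted p = 0.771). The 3 Rfx3 probes were at -0.84, -0.04 and 0.05 as given above. The neighbours beyond them, Pum3, 4430402I18Rik, Plpp6, Cdc37l1 and Vldlr, were at 0.06, -0.86, 0.20, 0.34 and 2.23, with none past the adjusted test, and at 0.37, -1.36, -0.53, 0.68 and 0.66 without WT replicates 3 and 4. Glis3 itself differed by -1.43 with a standard error of 0.46 (limma, adjusted p = 0.759), so the targeted gene did not pass either.

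The genes whose array-to-array pattern was most like that of each factor were taken by the within-genotype correlation over 8 arrays. For Rfx8 they were Zxdc (r = 0.98), Amdhd2 (0.98) and Olfr1311 (0.95), whose own genotype differences were -0.18, -0.19 and -0.09, against -1.74 for Rfx8. For Foxj1 they were Osbpl1a (0.98), Dbp (0.98) and Slc8a3 (0.97), and without WT replicate 1 these correlations were 0.80, 0.76 and 0.88. For Rfx2 they were Airn, Zfp957 and Agap1, at 0.99, 0.96 and 0.96. The correlations share array, depth and dye, and they were picked as the highest of all measured genes.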

How the data were processed

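Arrays were read in 1 colour by Agilent Feature Extraction 12, per the submitters' processing notes, on an mm9 design. The deposited intensity values are the authors' scanner output: processed signals, background-subtracted per the file headers, with spot flags. The deposited value table equals the processed signal. Names came from RefSeq accessions through a GRCm38.p6 gene table: 28215 probes matched 1 gene and 12959 none.

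Log2 of the processed signal minus the array's 75th percentile was tested with limma 3.58.1 (R 4.3.3), Glis3KO2 minus WT, with Benjamini-Hochberg adjustment over 36429 measured probes, those flagged as well above background by the scanner software on 4 or more arrays. Spots marked as outliers (73 to 109 per array) were left out. A gene in a list is represented by its brightest measured probe. The test was run on simulated data with independent noise and with planted differences larger than those of these factors. That check does not cover smaller differences or effects shared by arrays or slides. Named genes were drawn from up to 2 per list and direction with the smallest p, MHC class II genes beside Rfx5, the neighbours of Glis3 and, for each factor, the 3 most alike genes; others are said to be named after their values were seen. Samples with the same replicate number shared a slide and had weakly related deviations (r = 0.13, 0.27, 0.13 and 0.13), so a replicate block was run. Pairs of unlike number had r of -0.19 to 0.12. The highest of these, Glis3KO2 replicate 4 with WT replicate 3, lay on different slides and was close to the same-numbered values. Other alternatives were quantile normalization, normexp (offset 50, on median signals), other filters and leaving out arrays. The factors, lists and motifs were chosen with earlier results of these data known.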

Additional observations from a re-analysis of the deposited data

Results flagged for a closer look

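Dixon's ratio, the gap of the farthest array to its neighbour over the range of its genotype, exceeded its 95% critical value in 4 of 70 groups of 4 arrays tested, and chance alone gives about 1 in 20 groups. For Rfx4 probe A_51_P496309 the Glis3KO2 ratio was 0.894, with replicate 2 low at -4.22. The mean of the stromal markers had a ratio of 0.862 in Glis3KO2, with replicate 2 high at 1.59. The mean of the duct epithelium markers had a ratio of 0.868 in Glis3KO2, with replicate 4 low at -0.42, and of 0.842 in WT, with replicate 1 high at 0.19.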

How the results depend on the processing

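Over 20 alternatives, 8 of them leaving out 1 array, none called a probe of these genes, and 30 of 298 differences changed sign. The sign held under each alternative run for Rfx8, which was chosen by this contrast, and for Rfx3 probe A_52_P477804. Without WT replicates 3 and 4 the differences were -0.15 and 0.0074 for Rfx1 probes A_52_P261722 and A_52_P523480, 0.12 for Rfx2, 0.024 for Rfx3 A_52_P367882, 0.0034 for Rfx5 A_52_P335725 and 0.24 for Rfx7 A_51_P179894. Averaged over a gene's measured probes they were -0.032 for Rfx1, -0.27 for Rfx3, 0.0049 for Rfx4 and -0.093 for Rfx7. With normexp and the 75th percentile they were -0.10 for Rfx3 A_51_P161207, -0.56 for Rfx4 A_52_P476877 and 0.14 for Rfx7 A_51_P497594. These values include WT replicate 2, whose range was narrower under that setting. For Rfx4 A_52_P476877 it read -0.30, against -2.60 to -2.15 in the other WT arrays. Leaving it out under that setting was done for Rfx8 only among these genes. Rfx8 moved to -1.06 with normexp, to -0.69 with normexp and WT replicate 2 left out (chosen after the data were seen) and to -0.40 with normexp and quantile normalization, and the cause was not tested; its probe was not kept when every array had to be well above background. With the replicate block, for which same-numbered arrays were taken as pairs, Rfx8 differed by -1.74 and 0 probes were called; the block changed no call.

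Leaving out 1 array in turn gave 0 to 1 called probes over the whole array, the 1 being without Glis3KO2 replicate 3, and 0 among these genes. The differences then ran from -1.92 to -1.53 for Rfx8, -0.78 to 0.29 for Foxj1, -0.034 to 0.45 and -0.49 to -0.15 for Rfx1 A_52_P261722 and A_52_P523480, -0.48 to -0.025 for Rfx2, and -0.22 to 0.23, -0.13 to 0.077 and -1.13 to -0.28 for Rfx3 A_51_P161207, A_52_P367882 and A_52_P477804. They ran from -0.42 to -0.24 and -0.30 to 1.08 for Rfx4 A_51_P496309 and A_52_P476877, -0.44 to 0.075 and -0.19 to 0.069 for Rfx5 A_51_P365612 and A_52_P335725, and -0.54 to -0.12, -0.11 to 0.074 and -0.12 to 0.15 for Rfx7 A_51_P179894, A_51_P497594 and A_52_P580967. The number of arrays and, for Rfx8, Rfx4 and Rfx6, signal near background limit the precision.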
